A study of Gallus gallus with 24 samples.

Results

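Livers of fat line (FL) and lean line (LL) chickens were compared at 5 wk of age on 4 two-colour cDNA arrays, taken by their titles out of 24 arrays that cover 6 ages. The genotypes descend from a divergent selection for high or low weight of abdominal fat, kept up over 7 generations, and all birds were raised like commercial broilers, with no other treatment stated. Each array held total RNA from 1 FL and 1 LL liver of the same age, 4 birds per genotype, with Alexa Fluor 555 in channel 1 and Alexa Fluor 647 in channel 2. The FL bird was in channel 1 on replicates 1 and 3 and in channel 2 on replicates 2 and 4. The deposited value of a spot is a log ratio of the channels, and the sources used here give neither its base nor which channel is on top, nor whether columns had been turned to one direction of the genotypes before deposit. Values are therefore given in both ways, on a scale taken as log2. For the turned value the sign was changed on replicates 1 and 3. If the columns had not been turned before deposit, a negative turned value means less signal in FL than in LL where channel 2 is the numerator. It means more signal in FL where channel 1 is. If the columns had been turned already, a difference between genotypes cancels in the turned value, and what follows the dye remains. The value as deposited is the plain mean of the 4 columns. It is the genotype ratio if the columns had been turned already. If they had not, a difference between genotypes cancels in it. What both dye orientations share then remains, a dye bias of a probe included. A natural logarithm is not excluded, and folds are those of base 2.

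The liver makes nearly all fatty acids of a growing chicken. Glucose that is not stored as glycogen passes through glycolysis and the citrate cycle to acetyl-CoA, which acetyl-CoA carboxylase and fatty acid synthase turn into fatty acids under the control of insulin, thyroid hormone and the transcription factors SREBP1 and ChREBP. The triglycerides leave the liver in lipoproteins and are laid down in adipose tissue, abdominal fat included. Hepatocytes also secrete most plasma proteins and carry the enzymes of amino acid and xenobiotic metabolism. In whole liver, a change in the number of cells of a type and a change of the RNA per cell cannot be told apart. Ratios hold no level, so that the identity of the tissue could not be checked from them.

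Between 18965 and 18968 of the 19200 spots had a value on each array at 5 wk, and 14855 features were tested, namely 6385 genes with a symbol and 8470 single probes without one. The SD over features was between 0.17 and 0.19, at the low end of the range of the other ages (0.17 to 0.36), and the medians of the 4 arrays were between 0.00 and 0.02. As deposited, replicates 1 and 3 correlated with each other at r = 0.44 and replicates 2 and 4 at 0.64, across features, which are not independent replicates. The 4 pairs of opposite orientation had r between 0.16 and 0.20. At 3, 9 and 11 wk the lowest r of opposite orientation was 0.40, 0.41 and 0.46, so the gap between like and unlike orientation was seen at 5 wk and not at those ages. Low r between opposite orientations was not particular to 5 wk. At 7 wk such pairs had r from 0.16 to 0.55 and like pairs from 0.26 to 0.41. At 1 wk they had r from -0.20 to 0.56 and like pairs from -0.31 to 0.14. The mean of the 20 arrays of other ages ran through the 5 wk arrays unequally. It had r = 0.27 and 0.24 with replicates 1 and 3, and r = 0.68 and 0.61 with replicates 2 and 4. A property that replicates 2 and 4 share and replicates 1 and 3 do not, other than the dye of the FL bird, cannot be told apart from the genotype in the turned value.

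The first question was which features had a turned value away from 0 at 5 wk. Such a value is a difference between genotypes only if the columns had not been turned before deposit. With the 4 arrays fitted alone in limma, 134 features passed an adjusted p of 0.05 and are referred to as called, 0.902% of those tested, of which 113 (0.761%) had a negative and 21 (0.141%) a positive turned value, and 2363 features (15.9%) had an unadjusted p under 0.05. They included 57 genes with a symbol, 49 negative and 8 positive. The most extreme among the genes was ITPK1, the inositol tetrakisphosphate kinase of inositol phosphate metabolism, whose deposited log2 ratios on replicates 1 to 4 were 0.67, -0.76, 0.78 and -0.89. The sign followed the dye on every array and the sizes were alike, which gave a turned value of -0.77 ± 0.04 (SE, n = 4 arrays, adjusted p = 0.00214 in limma). In the fit of all 24 arrays, in which the spread is shared between ages, 0 features were called (0% of those tested), while 174 features, 1.17%, had an unadjusted p under 0.05. The arrays at 5 wk had the lowest spread of the series, with a median residual SD of 0.08 against 0.11 to 0.22 elsewhere, and the median SE of a turned value was 0.04 in the fit of 4 arrays and 0.08 in the fit of 24. The fit of 4 arrays has 2 residual degrees of freedom, and with the sign term alone, without an intercept, 2 features were called. Without replicate 2 the count was 23 and without replicate 4 it was 39, whereas it was 566 without replicate 1 and 499 without replicate 3, and ITPK1 was called in all of these. An exact sign-change permutation test of a single gene over 4 arrays cannot give a two-sided p below 0.125. Of the 134 called features, 104 had the same turned sign on all 4 arrays, 125 were at least 1.2-fold, 21 at least 1.5-fold, and 52 had an unadjusted p under 0.05 in the fit of 24 arrays. Of all features 13.8% had the same turned sign on all 4 arrays and 1.17% had such a p. These counts describe the values that made the calls and are no separate support, since both fits hold the same turned value.

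**Figure D1:**
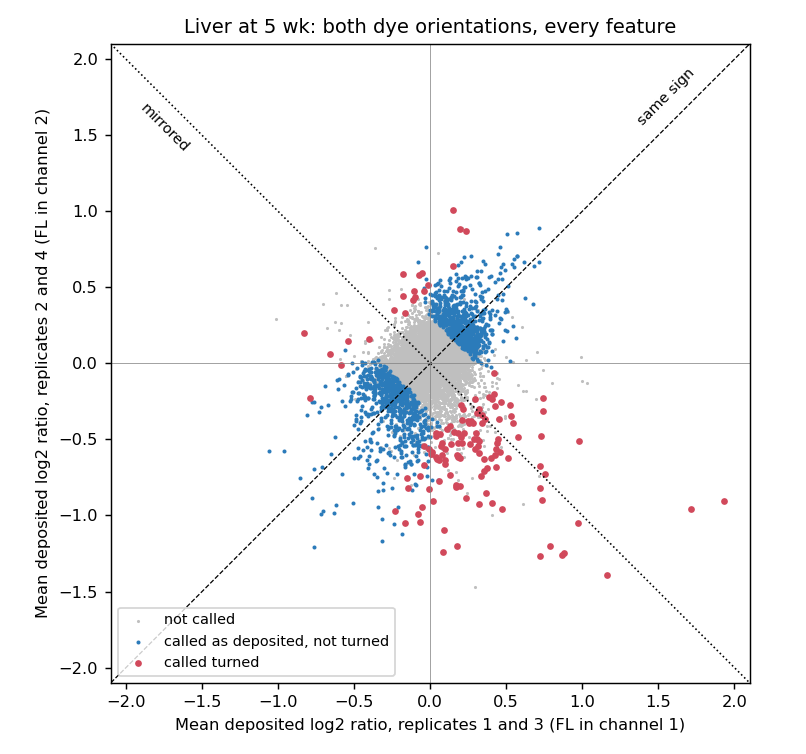
Mean deposited log2 ratio of replicates 2 and 4 (vertical axis) against that of replicates 1 and 3 (horizontal axis) for every feature at 5 wk. The 134 features called when turned (red) lie off the dashed line of equal values, 113 of them below it. Some lie along the dotted line of mirrored values. In 55 the mean of replicates 2 and 4 is at least 3 times that of replicates 1 and 3 in size, so these lie nearer the vertical axis. Features called only as deposited (blue) lie along the dashed line or nearer an axis. In 438 of the 1491 features called as deposited, red ones included, the mean of one pair is at least 3 times that of the other in size.

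A group of genes mirrored like ITPK1, with ratios of similar size and opposite sign in both orientations. LUC7L2, a splicing factor of the U1 particle, had 0.52, -0.41, 0.63 and -0.56 (turned -0.53 ± 0.05, adjusted p = 0.00532). KIF1BP, a partner of kinesin motors, had 0.44, -0.49, 0.44 and -0.50 (turned -0.47 ± 0.04, adjusted p = 0.00472), with all 4 arrays within 0.06 of each other once turned. FAF1, a ubiquitin-binding partner of the Fas receptor, had 0.50, -0.32, 0.59 and -0.47 (turned -0.47 ± 0.04). GSTA3, a glutathione S-transferase, had 0.52, -0.80, 0.51 and -0.44 (turned -0.57 ± 0.06, adjusted p = 0.0138). In these genes no array stood on the other side of 0 once turned. TPI1, the triose phosphate isomerase of glycolysis, was mirrored at a smaller size, with 0.29, -0.25, 0.30 and -0.21 (turned -0.26 ± 0.04, adjusted p = 0.0347). ATMIN, a transcription factor that interacts with the ATM kinase, was mirrored with a larger size on replicates 2 and 4, at 0.49, -0.94, 0.32 and -0.90 (turned -0.66 ± 0.04, adjusted p = 0.0034). Of the positive genes, DNAJC12, a co-chaperone of the aromatic amino acid hydroxylases, had -0.22, 0.38, -0.26 and 0.32 (turned 0.30 ± 0.04, adjusted p = 0.0249), and NCBP3, a cap-binding protein, had -0.16, 0.49, -0.20 and 0.68 (turned 0.38 ± 0.05). Both were on 1 side of 0 on all arrays once turned. In COQ10A, a carrier of coenzyme Q, and MTHFD2, a mitochondrial enzyme of folate metabolism, the larger values were on replicates 1 and 3. COQ10A had 0.40, -0.20, 0.45 and -0.35 (turned -0.35 ± 0.04, adjusted p = 0.0208), and MTHFD2 0.35, -0.18, 0.46 and -0.30 (turned -0.32 ± 0.04, adjusted p = 0.0263).

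Where a called gene had several probes, they did not always agree. RCHY1, a ubiquitin ligase, was called with a mean of -0.51 ± 0.04 over 2 probes, of which 1 had a turned value of -1.07 and the other 0.04. PODXL, podocalyxin, was called with -0.36 ± 0.05 over 4 probes, at -1.23, -0.15, -0.07 and 0.01. LOC417447, a locus without a name, had -0.80 and -0.26 (mean -0.53 ± 0.05), CDT1, a licensing factor of DNA replication, -0.49 and -0.03 (mean -0.26 ± 0.04), and CALCOCO2, an autophagy receptor, -0.59 and -0.04 (mean -0.32 ± 0.04). In each of these genes 1 probe carried most of the value, so their gene-level values are uncertain. AHCY, which hydrolyses S-adenosylhomocysteine, had -0.46 and -0.27, both on the same side. THRSP, whose probes had -0.61 and -0.22, is described with the lipogenic genes.

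The probes that carried these values varied alike at the ages not used to call them. Over the 20 arrays at 1, 3, 7, 9 and 11 wk the deposited values of 10 features correlated with ITPK1 at r above 0.8, and 9 of the 10 were among those called at 5 wk, where called features make up 0.902% of all. They were LUC7L2 (r = 0.89), CDT1 (0.85) and 7 probes without a symbol, 5 of which belong to the 10 called unnamed probes with the largest turned values. Over all features the median r with ITPK1 was -0.03 and the 99th percentile 0.52, and over the 133 other called features the median was 0.38. Turned columns gave 9 features above 0.8, 8 of them called. In the genes with unlike probes it was the probe with the large value at 5 wk that followed ITPK1, with r = 0.88 for PODXL, 0.84 for RCHY1, 0.85 for LOC417447, 0.91 for CDT1 and 0.79 for CALCOCO2. The remaining probes of these genes had r from -0.52 to 0.10. These correlations are a description over arrays that share platform and dyes, and probe sequences were not examined, so that what these probes have in common was not tested. Of the other mirrored genes, GSTA3 (r = 0.595) and FAF1 (0.524) lay above the 99th percentile of 0.518. KIF1BP (0.404) lay above the 95th percentile of 0.373. ATMIN (0.22), TPI1 (0.07) and THRSP (0.23, with 0.09 to 0.21 for its probes) lay below both.

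The second group of called genes owed its turned value mainly to replicates 2 and 4. For 62 of the 134 called features the mean of one pair of arrays was at least 3 times that of the other in size, with replicates 2 and 4 the larger in 55 and replicates 1 and 3 in 7. The share over all features was not counted, so these counts only describe the called features. GPR183, an oxysterol receptor of immune cells, had deposited log2 ratios of 0.18, -1.05, -0.02 and -1.44 (turned -0.66 ± 0.07, adjusted p = 0.0132). CYP2C23a, a cytochrome P450 of the CYP2C family, had 0.22, -1.01, 0.14 and -1.38 (turned -0.69 ± 0.06, adjusted p = 0.00743), and its probes had -1.10 and -0.27. Both genes were far from 0 with the FL bird in channel 2 and near 0 with it in channel 1. EFR3A, a plasma membrane scaffold of a phosphatidylinositol kinase, had -0.20, -0.91, 0.06 and -1.18. FILIP1L, a cytoskeletal regulator, was the largest positive called gene with 0.31, 0.97, -0.01 and 1.05 (turned 0.43 ± 0.06, adjusted p = 0.0257), but replicate 1 lay on the other side of 0 from the rest once turned. ERN1, the IRE1 sensor of the unfolded protein response, had 0.01, -0.97, -0.03 and -0.68 (turned -0.41 ± 0.06). Of the 134 features 64 were also called as deposited, these 5 genes among them. FERMT1, the integrin activator kindlin-1, had 0.18, -0.99, 0.29 and -0.77 (turned -0.56 ± 0.05, adjusted p = 0.00697), and RETSAT, the retinol saturase, 0.03, -0.53, 0.17 and -0.60 (turned -0.33 ± 0.04, adjusted p = 0.023). Among positive genes PLS3, an actin-bundling plastin, had 0.16, 0.80, 0.31 and 0.94, positive as deposited on all 4 arrays (turned 0.32 ± 0.05, adjusted p = 0.0376), and MXRA8, a membrane protein linked to matrix remodelling, -0.11, 0.45, -0.11 and 0.39 (turned 0.27 ± 0.04, adjusted p = 0.0353). AP3M1, a subunit of a vesicle adaptor complex, missed the threshold with 0.07, 0.59, -0.13 and 0.94 (turned 0.40 ± 0.07, adjusted p = 0.0507).

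**Figure D2:**
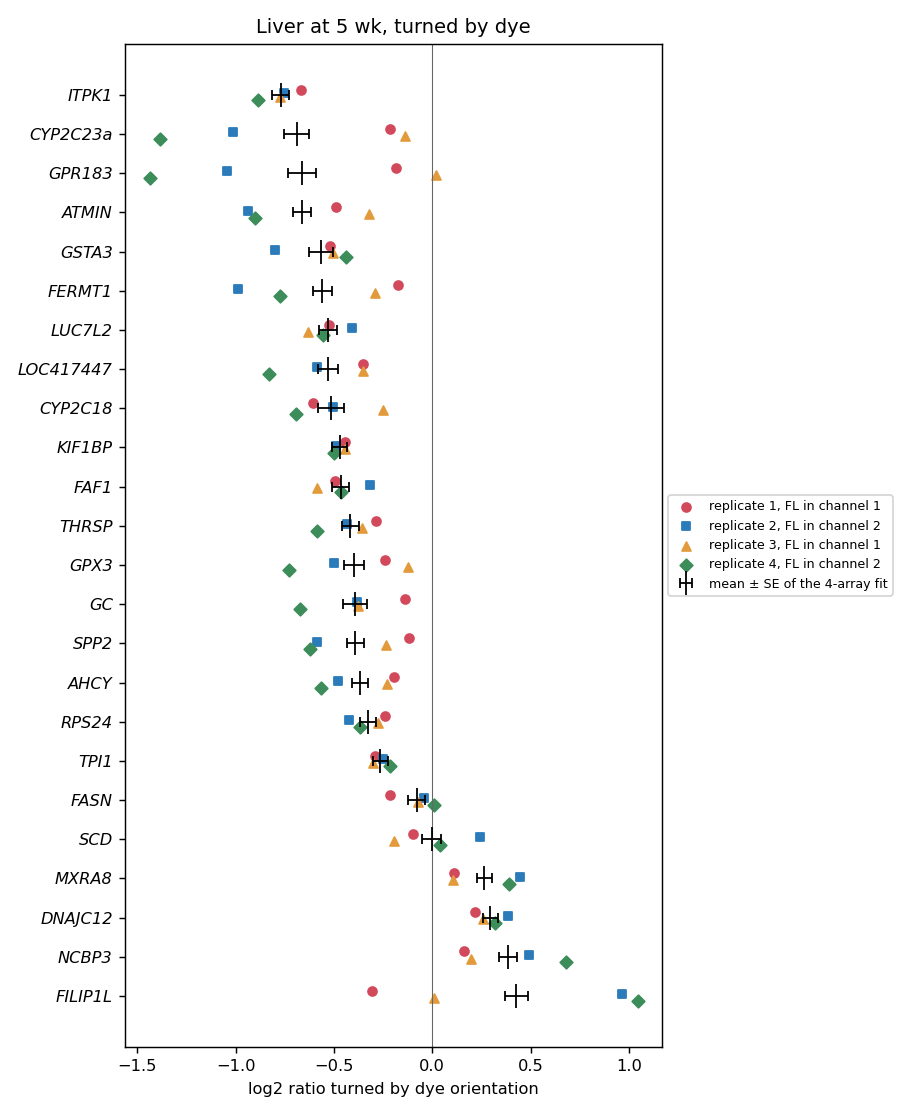
Turned log2 ratio of each array for 24 genes at 5 wk (horizontal axis), with the mean and its SE from the fit of 4 arrays. In ITPK1, LUC7L2, KIF1BP and TPI1 the 4 arrays lie together, in GPR183, CYP2C23a and FILIP1L replicates 2 and 4 lie apart from replicates 1 and 3, and FASN and SCD lie about 0.

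Among the lipogenic genes described here THRSP had the largest turned value in size. THRSP, the thyroid hormone responsive Spot 14 protein that goes with hepatic lipogenesis, had deposited ratios of 0.29, -0.43, 0.36 and -0.59 and a turned value of -0.42 ± 0.04 (adjusted p = 0.0136 with 4 arrays, unadjusted p = 0.0171 with 24 arrays). The sign followed the dye in 1 of its 2 probes, with 0.64, -0.30, 0.92 and -0.59, whereas the other was negative as deposited on all 4 arrays, with -0.06, -0.57, -0.21 and -0.58, so that its gene-level value is uncertain. The other called gene of fatty acid synthesis and its regulators was HSD17B12, a ketoacyl-CoA reductase of chain elongation, with 0.08, -0.49, -0.01 and -0.47 (turned -0.26 ± 0.04, adjusted p = 0.042). FASN, the fatty acid synthase, had 0.21, -0.04, 0.07 and 0.01 (turned -0.08 ± 0.04), and SCD, the stearoyl-CoA desaturase, 0.10, 0.24, 0.19 and 0.04 (turned -0.0027 ± 0.05). The 2 probes of FASN were unlike. In 1 the sign followed the dye, with 0.29, -0.27, 0.06 and -0.16 (turned -0.20). The other was positive as deposited on all 4 arrays, with 0.13, 0.19, 0.08 and 0.18 (turned 0.04). The gene-level value of FASN is therefore uncertain. ACACA, the acetyl-CoA carboxylase, had 0.69, 0.14, 0.36 and -0.10 (turned -0.25 ± 0.07, adjusted p = 0.13), so that replicates 1 and 3 carried it. GPAM, the mitochondrial acyltransferase that starts glycerolipid synthesis, had 0.24, -0.25, 0.10 and -0.44 (turned -0.26 ± 0.05, adjusted p = 0.0704), with the sign following the dye on each array but no call. Of the 24 genes measured in this list, 15 were negative, 2 were called and the median was -0.02, while the median of all features was 0.01 and 6880 of 14855 were negative. Of 17 genes of triglyceride assembly, 18 of cholesterol synthesis and 30 of fatty acid oxidation 0 were called in limma (3, 2 and 5 had an unadjusted p under 0.05), with medians of -0.02, 0.01 and -0.02. Among them HMGCS1, the cytosolic HMG-CoA synthase, had 0.25 ± 0.07 (adjusted p = 0.162), and DECR1, a dienoyl-CoA reductase of unsaturated fatty acid oxidation, -0.18 ± 0.05 (adjusted p = 0.141). Over all features 0.902% were called in limma and 15.9% had an unadjusted p under 0.05, so 0 calls in lists of this size lie near those shares.

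In glycogen metabolism 0 of 17 genes were called in limma, 6 had an unadjusted p under 0.05 and the median turned value was -0.07, with 11 negative. Of all features 0.902% were called, 15.9% had such a p and 46.3% were negative. GBE1, the glycogen branching enzyme, had 0.61, -0.35, 0.18 and -0.48, which followed the dye on all 4 arrays (turned -0.40 ± 0.07, adjusted p = 0.062 with 4 arrays, unadjusted p = 0.00402 with 24), and both of its probes were negative, at -0.49 and -0.32. GYS2, the liver glycogen synthase, had -0.10, -0.33, 0.01 and -0.49 (turned -0.18 ± 0.05, adjusted p = 0.119), and PYGL, the liver phosphorylase, -0.13 ± 0.04 (adjusted p = 0.206), with probes at -0.29, -0.26 and 0.17. In these 3 genes of glycogen turnover the gene-level values were negative but not past the test. Of 28 genes of glycolysis and gluconeogenesis only TPI1 was called, and the median was -0.01. PGAM1, the phosphoglycerate mutase, had -0.22 ± 0.04 (adjusted p = 0.0632). FBP1, the fructose bisphosphatase of gluconeogenesis, had -0.08, -1.01, -0.11 and -0.59 (turned -0.35 ± 0.07, adjusted p = 0.0694), and the deposited ratios of all 4 arrays were negative.

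Of 23 acute phase and plasma carrier proteins 4 were called, all negative, while 13 of the 23 had a negative turned value and the median was -0.09. The list median once turned was 0.03, -0.29, 0.10 and -0.15 on replicates 1 to 4, and so negative on replicates 2 and 4 alone. They were GC, the vitamin D-binding protein, with 0.14, -0.38, 0.38 and -0.67 (turned -0.39 ± 0.06, adjusted p = 0.0469), AMBP, the precursor of bikunin and alpha-1-microglobulin (-0.38 ± 0.05), RBP4A, a plasma carrier of retinol (-0.34 ± 0.04), and ITIH2, a chain of the inter-alpha-trypsin inhibitor (-0.30 ± 0.05). In AMBP, RBP4A and ITIH2 the mean of replicates 1 and 3 was within 0.10 of 0, whereas replicates 2 and 4 had -0.66, -0.60 and -0.58. SPP2, a secreted phosphoprotein made by the liver, had 0.12, -0.59, 0.23 and -0.62 (turned -0.39 ± 0.04, adjusted p = 0.0132). Of 45 cytosolic ribosomal proteins 40 had a negative turned value, 13 were negative on all 4 arrays and 3 were called, with a median of -0.13, the lowest of the 27 functional lists. Of all features 46.3% were negative, 6.02% negative on all 4 arrays and 0.902% called. The turned median of this list was also -0.13 at 1 wk, so the value was not particular to 5 wk. At 3, 7, 9 and 11 wk it was -0.01, -0.02, -0.02 and -0.04. RPS24 had 0.24, -0.42, 0.27 and -0.37 (turned -0.33 ± 0.04, adjusted p = 0.0184), RPS6 -0.30 ± 0.05 over 3 probes, of which 1 had -0.07, and RPLP2, an acidic protein of the stalk, -0.25 ± 0.04. RPL23 had -0.26 ± 0.05 (adjusted p = 0.0694), with the sign following the dye on all 4 arrays. Genes of ribosomal proteins have many related copies, and the array could not separate them where sequences are alike. As a list they had medians of 0.02, -0.19, 0.13 and -0.14 on replicates 1 to 4 as deposited, which are -0.02, -0.19, -0.13 and -0.14 once turned, smallest in size on replicate 1. Mitochondrial ribosomal proteins had a median of -0.01, with 1 of 38 called (MRPS15, -0.39 ± 0.05).

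Among enzymes of xenobiotic and redox metabolism 4 of 55 genes were called, all negative, with 34 negative and a median of -0.05. Besides GSTA3 and CYP2C23a they were CYP2C18, another P450 of the CYP2C family, with 0.61, -0.51, 0.25 and -0.70 (turned -0.51 ± 0.07, adjusted p = 0.0227), and GPX3, a secreted glutathione peroxidase, with 0.24, -0.50, 0.13 and -0.73 (turned -0.40 ± 0.05, adjusted p = 0.0218), whose probes had -0.61 and -0.19. P450 genes of a family share sequence and may share signal. In amino acid metabolism 2 of 37 genes were called, AHCY with 0.19, -0.48, 0.23 and -0.56 (turned -0.37 ± 0.04, adjusted p = 0.0138) and ALDH4A1, the mitochondrial enzyme that ends proline breakdown (-0.27 ± 0.04, adjusted p = 0.0492), whose probes had -0.51 and -0.03. The median of that list was 0.02. GPT2, the mitochondrial alanine aminotransferase, ran the other way with -1.05, 0.12, -0.31 and 0.34 (turned 0.46 ± 0.11, adjusted p = 0.113), and replicate 1 alone was beyond 1. ASNS, the asparagine synthetase, had 0.44, -0.49, -0.07 and -0.32 (turned -0.30 ± 0.08, adjusted p = 0.143). Of the respiratory chain and ATP synthase 1 of 46 genes was called, NDUFA9 of complex I (-0.26 ± 0.04, adjusted p = 0.0378), and of 62 chaperones and factors of the unfolded protein response 2 were, ERN1 and DNAJC12. GPR183 was the single call among 29 genes of the interferon response and antigen presentation. Counting the lipid and glycogen lists above, 17 of the 27 lists had 0 called genes in limma, where 0.902% of all features were called. Of the 577 entries of these 17 lists 104 had an unadjusted p under 0.05, against 15.9% of all features. Lists of these sizes with 0 calls lie near the share over all features. The others were lipid transport, bile acids, the citrate cycle, endocrine signalling, nuclear receptors, coagulation, complement, the proteasome, translation factors, vesicle traffic, splicing, matrix and the cell cycle. GHR, the growth hormone receptor, had -0.28 ± 0.07 (adjusted p = 0.132), and HNF4A, a nuclear receptor of hepatocyte identity, -0.16 ± 0.04 (adjusted p = 0.13).

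**Figure D3:**
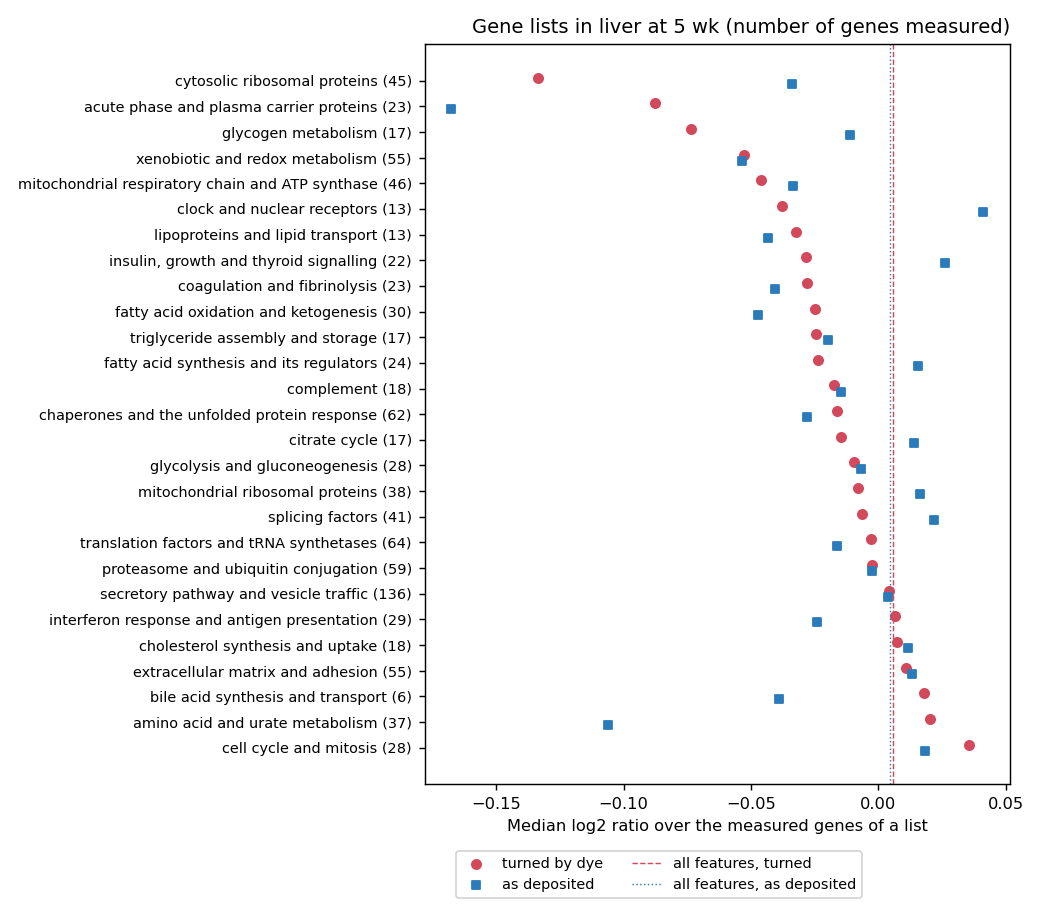
Median log2 ratio over the measured genes of each functional list at 5 wk, turned (circles) and as deposited (squares), with the medians of all features as lines. The turned median was lowest for ribosomal proteins (-0.13), and the deposited median was lowest for acute phase and carrier proteins (-0.17).

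Taken as deposited, the same 4 arrays gave far more calls. In the fit of 4 arrays 1491 features were called, 10% of those tested, 763 positive (5.14%) and 728 negative (4.9%), among them 655 genes with a symbol, and 4202 features (28.3%) had an unadjusted p under 0.05. The count was 185 without replicate 2 and 213 without replicate 4. In 438 of the 1491 features the mean of one pair of arrays was at least 3 times that of the other in size. Replicates 2 and 4 were the larger in 291 and replicates 1 and 3 in 147. The share over all features was not counted. In the fit of 24 arrays 8 were called, 0.0539%, with 1401 features (9.43%) at an unadjusted p under 0.05, and the count was 2 without replicate 3, 3 without replicate 1, 4 without replicate 2 and 93 with 7 wk replicate 1, whose median is shifted, left out. With all arrays centred it was 42, centred and scaled 801, and with array weights 1098. The 5 genes among the 8 were ING4, a chromatin reader of the inhibitor of growth family, with 0.65, 0.81, 0.79 and 0.98 (0.81 ± 0.05, adjusted p = 0.013 with 24 arrays), RAB18L, of the Rab family of small GTPases, with 0.46, 0.66, 0.43 and 0.77 (0.58 ± 0.04, adjusted p = 0.000167), DYNC1LI1, a light intermediate chain of dynein (0.39 ± 0.05, adjusted p = 0.0202), NTN4L (-0.80 ± 0.10, adjusted p = 0.00356) and RRP9, a protein of the U3 particle of ribosome assembly, with -0.79, -0.35, -0.67 and -0.29 (-0.53 ± 0.04, adjusted p = 0.013). All 5 had 1 sign on all 4 arrays.

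**Figure D4:**
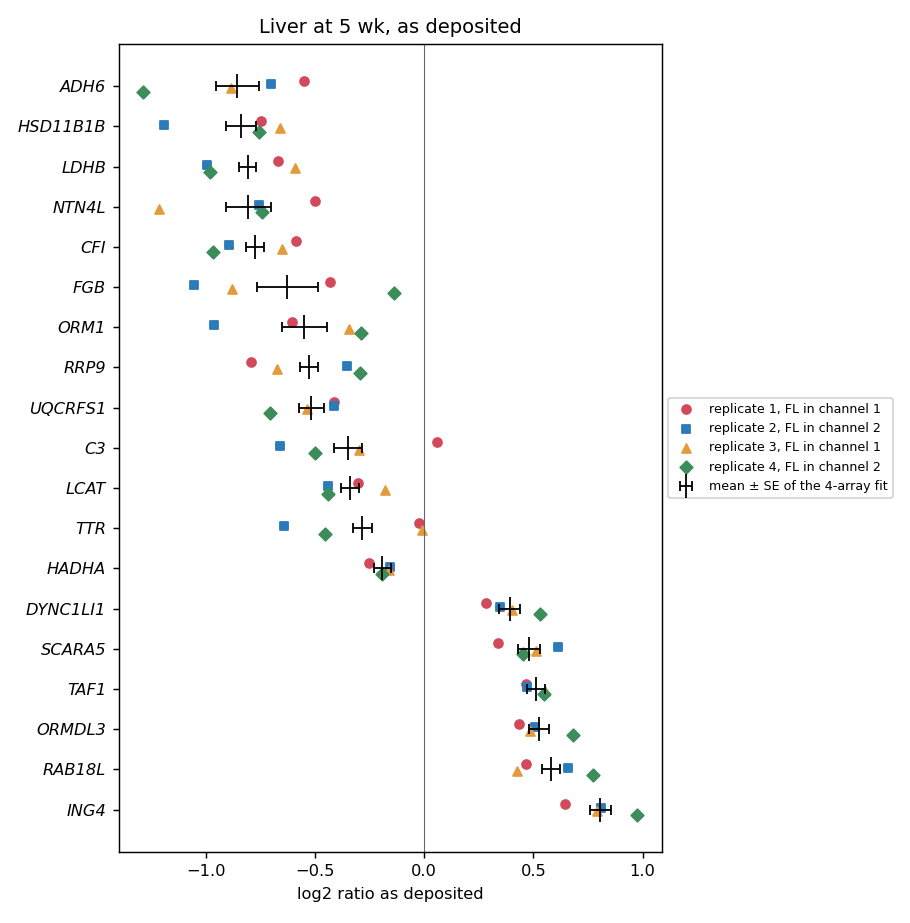
Deposited log2 ratio of each array for 19 genes at 5 wk (horizontal axis), with the mean and its SE from the fit of 4 arrays. The arrays of both orientations lie on the same side of 0 for all of them except replicate 1 of C3.

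Beside NTN4L and RRP9, the negative genes called as deposited included the following. ADH6, an alcohol dehydrogenase, had -0.55, -0.70, -0.88 and -1.28 (-0.85 ± 0.10, adjusted p = 0.00614 with 4 arrays). HSD11B1B, of the family of hydroxysteroid dehydrogenases that act on glucocorticoids, had -0.75, -1.19, -0.66 and -0.76 (-0.84 ± 0.07, adjusted p = 0.00268), and LDHB, a subunit of lactate dehydrogenase, -0.67, -0.99, -0.59 and -0.98 (-0.81 ± 0.04, adjusted p = 0.00165). CFI, the complement protease factor I, had -0.59, -0.90, -0.65 and -0.97 (-0.77 ± 0.04, adjusted p = 0.00165). None of the 4 genes had an array above -0.5. FGB, the fibrinogen beta chain, varied more, from -1.05 to -0.14 (-0.63 ± 0.14, adjusted p = 0.0385). LCAT, which esterifies cholesterol in lipoproteins, had -0.34 ± 0.04 (adjusted p = 0.00725) with probes at -0.61 and -0.07, and UQCRFS1, the iron-sulphur protein of complex III, -0.52 ± 0.06 (adjusted p = 0.00558). On the positive side SCARA5, a ferritin receptor, had 0.34, 0.61, 0.51 and 0.45 (0.48 ± 0.05, adjusted p = 0.00452), ORMDL3, a regulator of sphingolipid synthesis, 0.53 ± 0.05, and TAF1, a subunit of the TFIID complex, 0.51 ± 0.04.

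Of the 23 acute phase and carrier proteins 10 were called as deposited, all negative, with 19 negative members and a median of -0.17, against 7107 negative of 14855 features and a median of 0.00 for all. Their median was -0.03 on replicate 1, -0.29 on replicate 2, -0.10 on replicate 3 and -0.15 on replicate 4. ORM1, orosomucoid, had -0.55 ± 0.10 (adjusted p = 0.0232), and TTR, transthyretin, -0.28 ± 0.05 (adjusted p = 0.0155), with -0.03 and -0.01 on replicates 1 and 3 and -0.64 and -0.46 on replicates 2 and 4, and 0.04 once the profile of the other ages was removed. Of 18 complement genes 4 were called, all negative, and C3, the central component, had 0.06, -0.66, -0.30 and -0.50 (-0.35 ± 0.06, adjusted p = 0.0224). Coagulation had 6 negative and 2 positive calls among 23 genes, xenobiotic metabolism 9 and 2 among 55, and fatty acid oxidation 6 and 0 among 30. Over all features 10% were called as deposited in the fit of 4 arrays, 5.14% positive and 4.9% negative. Some calls in each list are therefore no result about that list, and the lists were not tested against this share. Matrix and adhesion genes were the list with the most positive calls, 9 of 55 with 0 negative, and their median was 0.01. Within fatty acid oxidation HADHA, the alpha subunit of the trifunctional protein, had -0.25, -0.16, -0.16 and -0.19 (-0.19 ± 0.04, adjusted p = 0.0326), which was small and alike on all arrays. ORM1, C3 and LDHB are described here because of their values.

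The signs of the genes called as deposited were mostly the signs of the other ages. At 1, 3, 7, 9 and 11 wk, in this order, 651, 736, 743, 646 and 616 of the 763 positive features were again positive, and 556, 685, 547, 586 and 614 of the 728 negative ones were again negative. Of all features 51.4%, 53.7%, 73.9%, 52.4% and 51.2% were positive at these ages and 48.6%, 46.3%, 26.1%, 47.6% and 48.8% negative. If the columns had not been turned before deposit, these values are means over both dye orientations and no genotype ratio. Which case holds was not tested. For the turned value the shares lay above those of all features at some ages and below them at others. Of the 113 features with a negative turned call, 88 (77.9%) were negative at 1 wk and 87 (77.0%) at 3 wk, where 53.3% and 53.1% of all features were negative, but 40 (35.4%) at 9 wk and 47 (41.6%) at 11 wk, where 50.4% of all features were. At 7 wk 70 were negative (61.9%, against 80.6% of all features, an age with 1 array of shifted median). Of the 21 features with a positive turned call, 8, 11, 5, 14 and 12 were positive at the other ages in the same order, where 46.7%, 46.9%, 19.4%, 49.6% and 49.6% of all features were. ITPK1 had mean turned values of -0.37, -0.36, -0.77, -0.21, 0.42 and -0.09 from 1 to 11 wk, and LUC7L2 -0.43, -0.29, -0.53, -0.22, 0.28 and -0.06. At 5 wk the turned values of the 4 arrays spanned 0.22 in both genes, and at the other ages between 1.07 and 1.63 in ITPK1 and between 0.67 and 1.52 in LUC7L2. THRSP had -0.11, -0.23, -0.42, 0.13, 0.02 and -0.21, with a span of 0.30 at 5 wk and of 0.89 to 1.57 elsewhere. ITPK1, LUC7L2 and THRSP were called on the 5 wk arrays, where a small spread within each dye orientation favours a call. Their narrow span is therefore no separate support. A call did not require a narrow span over all 4 arrays, since CYP2C23a was called as well. Over all features the median residual SD was also lowest at 5 wk, at 0.08. Turned, CYP2C23a spanned 1.24 at 5 wk and 0.65 to 2.24 elsewhere, and GBE1 0.43 at 5 wk and 0.43 to 1.12 elsewhere.

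**Figure D5:**
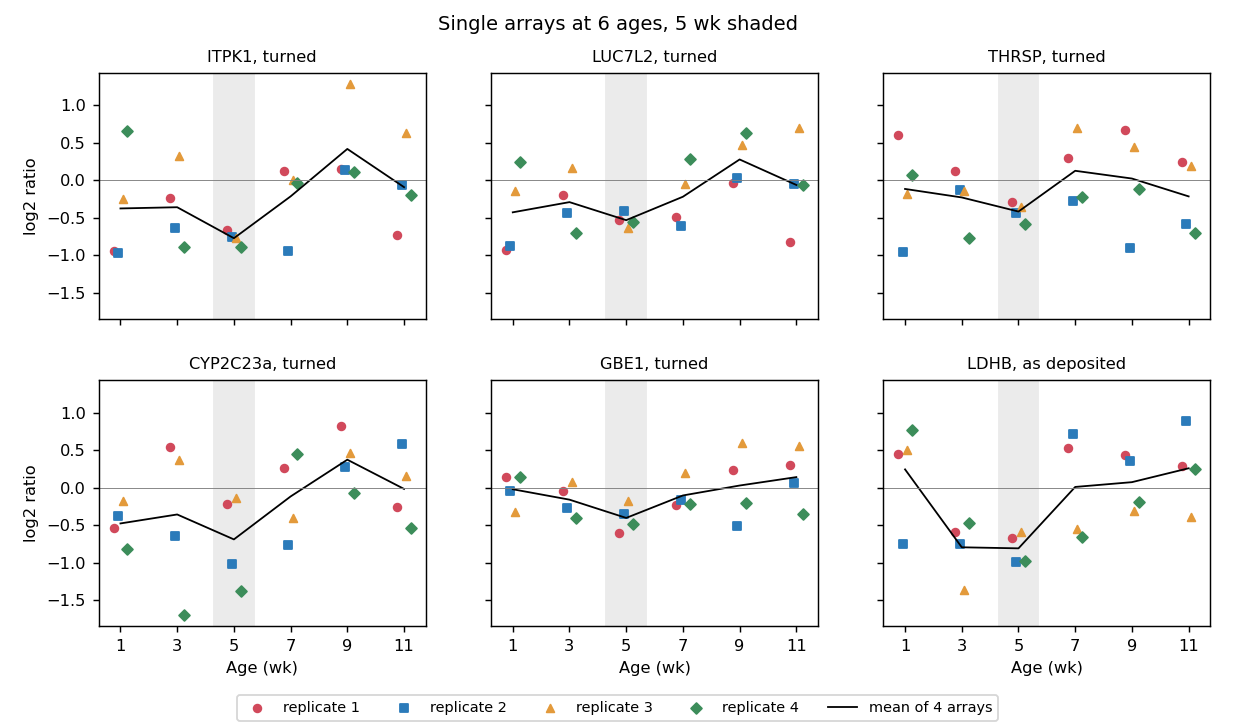
Log2 ratio of single arrays (points) and mean of 4 arrays (line) at 6 ages (horizontal axis, wk) for 5 genes turned by dye and for LDHB as deposited. At 5 wk (shaded) the arrays of ITPK1, LUC7L2 and THRSP lie closer together than at the other ages. These genes were called on the 5 wk arrays, so this is no separate support. The mean of LDHB is -0.79 at 3 wk and -0.81 at 5 wk but between 0.01 and 0.26 at the rest.

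Whether the value at 5 wk differed from the mean of the other 5 ages was tested directly in the fit of 24 arrays. With turned columns 0 features were called (0% of those tested) and 212 had an unadjusted p under 0.05 (1.43%). The genes with the smallest p included LOC417447, with a difference of -0.45 ± 0.16 (SE), SPP2, with -0.46 ± 0.16, and GBE1, with -0.38 ± 0.14, and the adjusted p was 1.00 for each in limma. As deposited 5 features were called (0.0337%), all of them probes without a symbol, and 845 (5.69%) had an unadjusted p under 0.05. The count was 0 when any 1 of the 5 wk arrays was left out. The genes next to the threshold were HADHA, with a difference of -0.35 ± 0.07 (adjusted p = 0.0518) and deposited means of 0.01, 0.04, -0.19, 0.08, 0.38 and 0.30 from 1 to 11 wk, and ARMC6, an armadillo repeat protein, with -0.42 ± 0.08 (adjusted p = 0.0518). At 5 wk itself ARMC6 was near 0, with deposited means of -0.06 on replicates 1 and 3 and -0.05 on replicates 2 and 4. CALCA, the calcitonin gene, had -0.48 ± 0.10 (adjusted p = 0.072), with a value near 0 at 5 wk and between 0.55 and 0.74 from 7 to 11 wk. LDHB differed by -0.77 ± 0.26 (unadjusted p = 0.00732, adjusted p = 0.582). Its value at 3 wk, -0.79, was close to that at 5 wk, whereas at 1, 7, 9 and 11 wk it was 0.24, 0.01, 0.07 and 0.26.

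Markers of the cell types that whole liver could hold were read in the same arrays. When turned, 0 of the 34 measured markers in 10 lists were called in limma and 3 had an unadjusted p under 0.05, against 0.902% and 15.9% of all features. The list medians were between -0.08 (3 genes of erythrocytes) and 0.09 (1 gene of lymphocytes). As deposited, all 5 measured hepatocyte markers were negative and 2 of them were called, with a median of -0.21 and medians of -0.28, -0.37, -0.11 and -0.15 on replicates 1 to 4. The 6 macrophage markers were all positive with 0 called and a median of 0.12, with 0.14, -0.05, 0.09 and 0.18 on replicates 1 to 4. Bile duct (1 gene) had a median of 0.25, muscle (3 genes) 0.13 and adipocytes 0.06, with 4 of 4 adipocyte markers positive and 0 called in these lists. Stellate cells and fibroblasts had -0.09, with 3 of 4 markers negative. The medians were -0.005 for lymphocytes (1 gene), 0.01 for endothelium, 0.02 for pancreas and 0.03 for erythrocytes. Of all features 47.8% were negative as deposited and 10% were called. The part of cell composition in the values as deposited was not tested.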

How the data were processed

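The authors deposited 1 log ratio per spot, which was used without change and taken here as log2 (log base and direction of the ratio not given in the sources used here; scanner, background correction and normalization likewise). Symbols came from the platform annotation (10478 probes with 1 symbol, 0 with several, 8599 without), 123 probes on 2 repeated accessions were left out, and 10332 probes matched a current gene in GRCg7b. Several probes of 1 gene were replaced by their mean, and a feature entered the tests if no age lacked more than 1 of its 4 values. The number of arrays limits the precision.

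Features were tested in limma 3.58.1 (R 4.3.3) with moderated two-sided statistics, and p-values were adjusted over all 14855 features (Benjamini-Hochberg). The fit of 24 arrays held a signed coefficient per age and 1 common term (as deposited, a coefficient per age), and the fit of 4 arrays held an intercept and the dye sign. In balanced arrays both give the same turned value, and SE and p belong to the fit named, that of 4 arrays where none is. Models were tested on simulated data. The members, the 27 functional and 10 marker lists and the naming rule were chosen with earlier results of these data known. By that rule up to 12 called genes per direction and reading with the largest values and, for turned calls, 1 sign on 4 arrays, the genes with the smallest p in each comparison without calls and in each list, and a few lipogenic and glycogen genes were eligible. Called genes with unequal pairs or unlike probes and list members with a call were added after their values were seen, as were ORM1, C3, LDHB, CDT1, CALCOCO2 and the comparison with ITPK1. ME1 was among the named genes but is not analysed here. Alternatives were the number of terms, a replicate block, centring and scaling of arrays, single probes, complete values, array weights, a robust prior, other handling of 2 arrays of other ages, and leaving out each 5 wk array. Removal of the profile of the other ages, in which the slope of each 5 wk array on the mean of the 20 other arrays was subtracted, was chosen after seeing the data.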

Additional observations from a re-analysis of the deposited data

Results flagged for a closer look

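Single values at 5 wk were screened for an array far from the other 3 by Dixon's criterion, and 0 of the genes named here had one. As deposited, 5 probes without a symbol differed between 5 wk and the mean of the other ages in the test of that difference in limma, each with an adjusted p of 0.025. The differences were 0.39 for probe 16.1.1, -0.50 for probe 16.1.18, -0.42 for probe 16.4.19, -0.50 for probe 28.2.20 and 0.54 for probe 4.3.1. Probe 16.1.18 had deposited values of -0.25, -0.15, -0.24 and -0.23 at 5 wk and means of 0.36, 0.55 and 0.66 at 7, 9 and 11 wk. Probe 4.3.1 had 0.30, 0.18, 0.36 and 0.18 at 5 wk and means of -0.06, -0.69 and -0.52 at those ages. In both the 1 and 3 wk means were between -0.16 and -0.02. None of the 5 was called when any 1 of the 5 wk arrays was left out.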

How the results depend on the processing

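The turned count of 134 in the fit of 4 arrays became 2 with 1 term, 303 with single probes, 254 with a robust prior and 61 (50 of them called before) with the profile of the other ages removed, and from 23 to 566 when 1 array was left out (39 without replicate 4, 23 without replicate 2, 566 without replicate 1, 499 without replicate 3). Of the 41 called genes named here, 7 kept their call without replicate 2, 11 without replicate 4, 1 with 1 term and 14 with the profile removed, and all 41 did in the other 6 settings, which include leaving out replicate 1 or 3. ITPK1 was called in each setting of the fit of 4 arrays. With 24 arrays the turned count stayed 0 in every setting of that fit, the replicate block set aside, and was 134 with 4 arrays alone. As deposited, the count of 1491 was 271 with 1 term, 2433 with single probes, 103 with the profile removed, and from 185 to 1733 with 1 array left out (185 without replicate 2, 213 without replicate 4). The count of 8 in the fit of 24 arrays was 1491 with 4 arrays alone, 42 with centred arrays, 801 with scaled arrays, 1098 with array weights, 93 without 1 array of 7 wk, 5 with 1 wk replicate 4 turned, and from 2 to 6 with 1 array left out. For the difference from the other ages, the count of 5 was 0 with a common term for each age, 10 centred, 31 scaled, 122 with array weights, 13 without the 7 wk array and 0 with 1 array left out, and the turned count was 0 in each setting. With the replicate block, in which replicate numbers share the dye orientation and nothing else in the labels, 11 features were called as deposited and 0 for the difference from the other ages. The cause was not tested. The turned value of a single age cannot be separated from the replicate terms in that block, so no conclusion is drawn from its turned values and count. Signs changed for 5 genes named here. In the fit of 24 arrays FASN had from -0.19 to 0.046 with 1 array left out (0.046 without replicate 1), and ACACA from -0.50 to 0.0089 (0.0089 without replicate 1). SCD had 0.0031 with array weights and from -0.045 to 0.025 with 1 array left out (from -0.052 to 0.047 with 4 arrays alone). The turned values with the replicate block were 0.079 for FASN and 0.018 for SCD. For the reason given above they are not read as changes of sign. As deposited TTR had 0.042 with the profile removed, and ARMC6 from -0.12 to 0.0049 with 1 array left out. With 1 array left out, a lone array of an orientation was assumed to vary like the pair that remained.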
